A study of Mus musculus with 6 samples.

Results

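The aminoacyl-tRNA synthetases are the enzymes that join each amino acid to its transfer RNA. They were taken as 36 gene symbols of a table of 24786, and all 36 had enough counts to be tested among 12139 testable genes. The rule assigned 20 of them to the cytosol and the 16 whose names end in 2 to the mitochondrion. The 6 RNA-seq libraries came from wild-type (WT) mouse intestinal organoids, epithelial cultures grown from gut stem cells. After TripLE had been applied for 10 min to separate the cells, 3 cultures were given 100 µM tyramine (titled TA100), an amine that gut bacteria make from tyrosine, for 16 h, and 3 were controls. The control titles name the solvent DMSO, the series' design names control medium, and neither says whether the tyramine cultures also held DMSO. Whether the replicates were separate mice or separate cultures is not labelled, and the p-values therefore describe the scatter of these 6 libraries, which may be technical.

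Each synthetase recognises 1 amino acid, activates it with ATP and transfers it to the matching tRNA, so the charged tRNA sets what the ribosome can add. Mammals carry, for most amino acids, separate nuclear genes for the cytosolic and the mitochondrial enzyme, and the mitochondrial ones serve the small set of proteins made inside that organelle. Gars and Kars, both in the cytosolic set here, are exceptions, since 1 gene encodes both the cytosolic and the mitochondrial form. In mammals several cytosolic synthetase genes are known targets of ATF4, the transcription factor of the integrated stress response that is made when amino acids run short.

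Library totals ran from 29176428 to 32489563 counts with tyramine and from 28316372 to 35035955 in controls. The libraries looked epithelial by 10 intestinal epithelial markers, whose summed level was 18390 to 20830 CPM with tyramine and 21420 to 22950 CPM in controls (CPM, counts scaled to a common library size with TMM factors). Of these 10 markers 2 rose and 5 fell, beside 12.5% of all tested genes rising and 13.3% falling. The keratin gene Krt18 (log2 fold change 0.67) and the E-cadherin gene Cdh1 (0.39, or 0.35 and not called without control replicate 2) rose. Those that fell were the brush border gene Vil1 (-1.43), the transcription factor gene Cdx2 (-1.79), Lgals4 (-1.05), Krt19 (-0.67) and Epcam (-0.44). Summed fibroblast, immune and endothelial markers were each 0.209 to 9.33 CPM with tyramine and 0.384 to 9.25 CPM in controls. The immune marker Itgam had 5.91 ± 0.869 CPM with tyramine and 6.06 ± 1.48 CPM in controls, and was not called. The fibroblast marker Col3a1 had 1.82 ± 0.0495 and 1.26 ± 0.192 CPM in the same order, and was not called (SD, n = 3 each). The B cell gene Cd79a was at 0 in all 6 libraries. Mki67, a marker of cycling cells, averaged 25 ± 0.881 CPM with tyramine and 1398 ± 106 CPM in controls (SD, n = 3 each). The part of these shifts in the synthetase results was not tested, and in bulk RNA fewer cells of a type and less RNA per cell cannot be told apart.

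After tyramine the cytosolic synthetases moved both ways by small amounts, and the mitochondrial ones mostly did not pass the test. Of the 20 cytosolic genes, 6 rose (Aars, Lars, Sars, Wars, Nars and Eprs), 4 fell (Vars, Mars, Iars and Gars) and 10 were not past the threshold (quasi-likelihood test in edgeR, p adjusted by Benjamini-Hochberg over all tested genes, threshold 0.05). Of the 16 mitochondrial genes 0 rose and only Rars2 fell. DESeq2 and limma-voom also called 0 rising mitochondrial genes, and 0 rose at an unadjusted p under 0.05. In all, 11 of 36 members were called, or 30.6%, against 25.8% of all tested genes, so the share over the family lay near that of the whole table. By direction, 12.5% of all tested genes rose and 13.3% fell, beside 30% and 20% of the cytosolic members and 0% and 6.25% of the mitochondrial ones. Counts and errors also differed between these sets and the whole table, and the shares were not adjusted for this. The median log2 fold change was 0.13 over the cytosolic genes and -0.36 over the mitochondrial ones, and the median over all tested genes was 0.00409. All 3 tyramine libraries lay above all controls in 7 cytosolic and 1 mitochondrial member, and below in 4 of each, beside 20.9% of all tested genes above, 23.6% below and 44.5% either way. Of the called members Vars alone passed a 2-fold change. Leaving out each library in turn gave 2 to 6 rising and 1 to 3 falling cytosolic members.

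**Figure D1:**
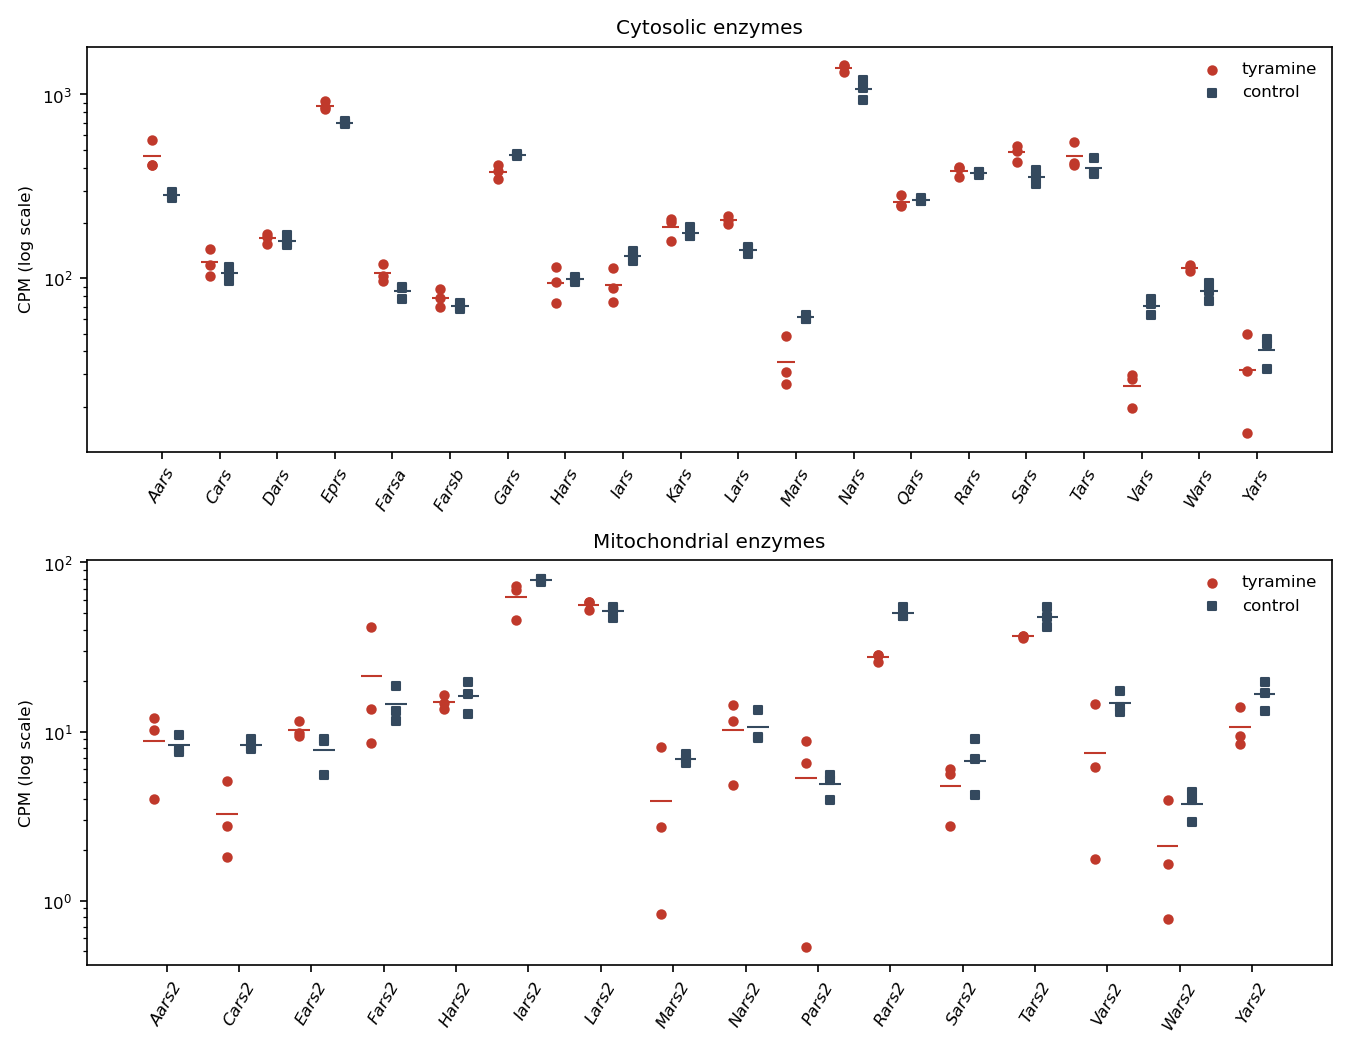
CPM of each synthetase gene in every library on a log axis, cytosolic enzymes in the upper panel and mitochondrial enzymes in the lower, with tyramine libraries as circles, control libraries as squares and a line at each group mean. Aars, Lars, Sars, Wars, Nars and Eprs have all 3 tyramine libraries above the controls, Vars, Mars, Iars, Gars and Rars2 have all 3 below, and the mitochondrial genes of low count scatter widely among the tyramine libraries. CPM is not divided by gene length, so heights compare groups and not genes.

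The alanine enzyme gene showed the largest rise among the members called. Aars (GRCm38 chromosome 8, 111033144 to 111057664, plus strand) had 412, 412 and 568 CPM in tyramine replicates 1 to 3 and 295, 285 and 273 CPM in control replicates 1 to 3. All tyramine libraries lay above all controls, and replicate 3 stood highest. Its log2 fold change was 0.71 (SE 0.132, 1.63-fold, edgeR adjusted p = 0.0034), and it was called in all 13 alternative settings. In the annotation 14.3% of its exon bases are shared with Exosc6, an exosome subunit gene on the same strand, which had 13.4 ± 5.72 CPM with tyramine and 14.6 ± 3.30 CPM in controls (SD, n = 3 each) and was not past the threshold.

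Lars, which charges leucine tRNA and also acts as a leucine sensor upstream of mTORC1 in mammalian cells, was the other rise that held in all 13 settings. It lies on chromosome 18, from 42202298 to 42262194 on the minus strand. Its level was 207, 198 and 219 CPM in tyramine replicates 1 to 3 and 146, 135 and 148 CPM in control replicates 1 to 3. The groups were far apart relative to their spread, with a log2 fold change of 0.54 (SE 0.103, edgeR adjusted p = 0.0040).

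The other 4 rising genes changed by less than 1.36-fold. Sars charges serine tRNA and also loads serine onto the selenocysteine tRNA. It had 494, 527 and 430.3 CPM with tyramine and 325, 358 and 389.6 CPM in controls (log2 fold change 0.44, SE 0.109). Nars, the asparagine enzyme, had 1439.7, 1330.3 and 1435 CPM with tyramine and 938, 1079.6 and 1194 CPM in controls (log2 fold change 0.39, SE 0.0993). Neither gene overlapped between groups, but the highest control came near the lowest tyramine library in both. Wars, the tryptophan enzyme, had 118, 109.9 and 115 CPM with tyramine and 84.9, 94.4 and 75.3 CPM in controls (log2 fold change 0.43, SE 0.129). Eprs encodes a double enzyme for glutamate and proline, and had 853, 829 and 920.4 CPM with tyramine and 703, 689 and 719 CPM in controls (log2 fold change 0.30, SE 0.0815). The edgeR adjusted p-values of these genes ran from 0.015 for Sars to 0.035 for Wars. Each of these 4 calls was lost when some libraries were left out 1 at a time, though the log2 fold change stayed positive. Over all tested genes, the number rising also dropped, from 1518 to between 934 and 1020, with 1 control fewer. Whether a particular library or the smaller number of libraries ended these 4 calls was not tested. Without control replicate 1 or 2 all 4 missed the threshold, with log2 fold changes of 0.36 and 0.43 for Sars, 0.30 and 0.39 for Nars, 0.42 and 0.50 for Wars and 0.29 and 0.28 for Eprs. Wars also missed it without control replicate 3 (0.34), tyramine replicate 1 (0.41) or tyramine replicate 2 (0.46), Nars without tyramine replicate 1 (0.37), and Sars without tyramine replicate 2 (0.37).

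Vars, which charges valine tRNA, fell most among the members called. It lies on chromosome 17, from 35000987 to 35016322 on the plus strand. Vars had 28.4, 29.9 and 19.7 CPM in tyramine replicates 1 to 3 and 72.3, 63.4 and 76.7 CPM in control replicates 1 to 3. Even the highest tyramine library was under the lowest control by more than the spread within either group. Its log2 fold change was -1.44 (SE 0.203, 2.72-fold lower, edgeR adjusted p = 0.00070), and all 13 alternatives called it.

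Mars, Iars and Gars fell by less than 1.74-fold. Mars, the methionine enzyme that also charges the initiator tRNA, had 30.9, 48.3 and 26.5 CPM with tyramine and 60.2, 60.1 and 63.1 CPM in controls (log2 fold change -0.80, SE 0.229, edgeR adjusted p = 0.029). The controls were close together and the tyramine libraries were not. Mars shares 68 exon bases with Ddit3, the gene of the stress factor CHOP, on the opposite strand of chromosome 10, and no source used here gives the strand setting of the counting. Ddit3 moved the other way, with 158 ± 65.2 CPM in tyramine libraries and 53.7 ± 8.57 CPM in controls (SD, n = 3 each). Iars, the isoleucine enzyme, had 114, 74.2 and 88.6 CPM with tyramine and 125, 139.9 and 131 CPM in controls (log2 fold change -0.52, SE 0.161, edgeR adjusted p = 0.040). Gars, the glycine enzyme for both compartments, had 412, 382 and 347 CPM with tyramine and 468, 462 and 475 CPM in controls (log2 fold change -0.30, SE 0.0927, edgeR adjusted p = 0.039). All 3 genes missed the threshold without control replicate 1, 2 or 3, with log2 fold changes of -0.81, -0.81 and -0.78 for Mars, -0.56, -0.48 and -0.53 for Iars and -0.31, -0.31 and -0.29 for Gars. Mars also missed it without tyramine replicate 1 (-0.71). Without tyramine replicate 2 or 3, Iars (-0.38 and -0.49) and Gars (-0.30 and -0.24) missed it as well.

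The 10 cytosolic genes not past the threshold had log2 fold changes of -0.36 to 0.32. The intervals were narrow for Rars (arginine), Dars (aspartate) and Qars (glutamine). Rars averaged 386 ± 24.9 CPM with tyramine and 374 ± 9.25 CPM in controls, with a 95% interval of the log2 fold change from -0.16 to 0.24. For Dars the interval was -0.20 to 0.29, and for Qars -0.26 to 0.18. Kars, the lysine enzyme of both compartments, had an interval of -0.18 to 0.40 and Hars, the histidine enzyme, of -0.43 to 0.31. Cars (cysteine) and Tars (threonine) had log2 fold changes of 0.20 and 0.21 with groups that overlapped. Farsa and Farsb encode the 2 subunits of the phenylalanine enzyme and had log2 fold changes of 0.32 and 0.16. For Farsa all 3 tyramine libraries (96.1, 103 and 119 CPM) lay above the controls (88.6, 76.6 and 90.1 CPM), yet the edgeR adjusted p was 0.12. Yars, the tyrosine enzyme, is the one whose amino acid is the precursor of tyramine. Its level was 14.3, 31.1 and 49.6 CPM in tyramine replicates 1 to 3 and 43.7, 46.6 and 32 CPM in control replicates 1 to 3. The tyramine libraries spanned the whole control range, and the interval of its log2 fold change, -1.21 to 0.48, was the widest of the cytosolic set.

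**Figure D2:**
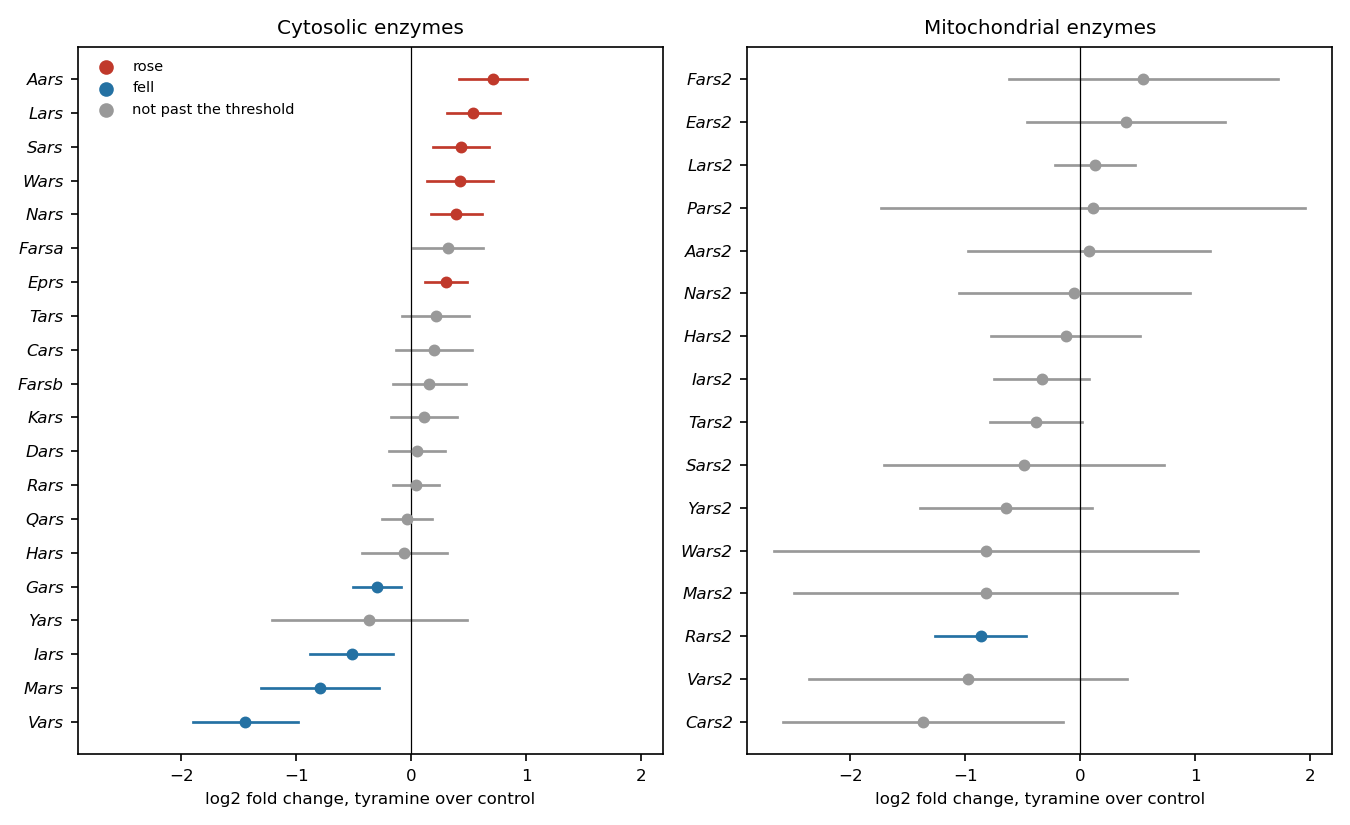
Log2 fold change (tyramine over control) of each synthetase gene with its 95% interval from the edgeR fit, ordered by value, cytosolic on the left and mitochondrial on the right, coloured by whether the gene rose, fell or was not past the threshold. The cytosolic values run from -1.44 for Vars to 0.71 for Aars, and the mitochondrial intervals are wider.

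Start-site windows were searched for the core of the C/EBP-ATF composite element, a sequence bound by ATF4 with a C/EBP partner, since cytosolic members are known ATF4 targets. RefSeq windows (GRCm38.p6, 250 bases before to 50 after the gene start) matched 27 of 36 members, 13 cytosolic and 14 mitochondrial. The rising genes Lars, Nars and Wars and the falling gene Vars had no window and were not searched. Cars, Hars, Rars, Hars2 and Pars2 had none either. The letters TGATGNAA, on either strand, stood in the windows of 5 of 13 cytosolic genes, which is 38.5%, and in 0 of 14 mitochondrial ones, beside 3.97% of all 32851 windows of 300 bases. The 5 genes did not share a direction, as Aars rose, Gars and Iars fell and Tars and Yars were not past the threshold. The letters TGACGTCA, a cAMP response element, stood in 0 of the 27 members' windows, beside 1.79% of all windows, and CCAAT in 7 of 13 cytosolic and 6 of 14 mitochondrial ones, beside 37.4%. A match is a description of these letters and not evidence of binding. The 5 windows with TGATGNAA are printed because they carry this match, 5′ to 3′ on the strand of the gene, with the matched letters of either strand in capitals. They are chr8:111033592-111033891 (plus) for Aars, chr6:55037751-55038050 (plus) for Gars, chr13:49681880-49682179 (plus) for Iars, chr15:11399609-11399908 (minus) for Tars and chr4:129189653-129189952 (plus) for Yars.
Aars: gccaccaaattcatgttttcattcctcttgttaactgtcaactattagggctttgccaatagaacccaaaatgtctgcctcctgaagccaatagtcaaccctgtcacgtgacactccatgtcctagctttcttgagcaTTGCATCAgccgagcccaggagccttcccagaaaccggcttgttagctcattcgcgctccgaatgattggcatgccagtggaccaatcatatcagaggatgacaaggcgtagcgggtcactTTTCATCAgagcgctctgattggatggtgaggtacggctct
Gars: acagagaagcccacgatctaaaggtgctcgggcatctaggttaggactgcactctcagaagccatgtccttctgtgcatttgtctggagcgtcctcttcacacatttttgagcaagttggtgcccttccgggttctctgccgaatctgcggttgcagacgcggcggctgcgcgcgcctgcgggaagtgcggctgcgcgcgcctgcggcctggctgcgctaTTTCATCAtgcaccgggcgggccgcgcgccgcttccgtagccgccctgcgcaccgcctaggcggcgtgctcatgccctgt
Iars: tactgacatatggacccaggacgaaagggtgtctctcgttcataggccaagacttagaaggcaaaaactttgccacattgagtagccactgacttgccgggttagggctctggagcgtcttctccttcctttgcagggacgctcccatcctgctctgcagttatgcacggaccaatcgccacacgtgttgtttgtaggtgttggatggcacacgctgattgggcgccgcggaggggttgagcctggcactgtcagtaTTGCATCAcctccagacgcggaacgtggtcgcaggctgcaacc
Tars: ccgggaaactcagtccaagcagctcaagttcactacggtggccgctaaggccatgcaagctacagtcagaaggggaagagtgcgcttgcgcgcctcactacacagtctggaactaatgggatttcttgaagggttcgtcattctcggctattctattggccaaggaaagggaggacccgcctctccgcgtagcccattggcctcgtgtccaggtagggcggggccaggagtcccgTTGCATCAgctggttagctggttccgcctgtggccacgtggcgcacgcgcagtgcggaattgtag
Yars: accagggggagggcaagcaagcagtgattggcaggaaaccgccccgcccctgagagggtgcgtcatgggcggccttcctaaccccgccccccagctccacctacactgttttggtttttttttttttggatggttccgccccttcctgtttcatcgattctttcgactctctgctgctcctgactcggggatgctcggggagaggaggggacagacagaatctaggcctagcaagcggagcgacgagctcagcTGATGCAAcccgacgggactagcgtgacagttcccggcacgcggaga
Aars holds the letters in 2 places and the other genes in 1 each.

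Among the mitochondrial genes, Rars2 fell. It encodes the mitochondrial arginine enzyme (chromosome 4, 34614957 to 34660167, plus strand) and had 28.4, 25.8 and 28.5 CPM in tyramine replicates 1 to 3 and 54.5, 48.1 and 48.2 CPM in control replicates 1 to 3. Tyramine libraries were close to each other and well under every control. The log2 fold change was -0.87 (SE 0.178, 1.83-fold lower, edgeR adjusted p = 0.0057), and Rars2 was called in all 13 alternatives.

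Of the other mitochondrial genes, 15 were not past the threshold, and 10 of these had a negative log2 fold change. Cars2, the cysteine enzyme, had 5.12, 2.77 and 1.81 CPM with tyramine and 8.13, 8.99 and 7.93 CPM in controls. All 3 tyramine libraries were under all controls, but they differed among themselves, and the log2 fold change of -1.37 (SE 0.544) had an edgeR adjusted p of 0.095. Without tyramine replicate 1 Cars2 passed the threshold at -1.86. Vars2, the mitochondrial valine enzyme, had 1.77, 14.6 and 6.13 CPM with tyramine and 13, 14 and 17.3 CPM in controls (log2 fold change -0.98, SE 0.618), and passed the threshold at -1.90 without tyramine replicate 2, the library nearest the controls. Tars2 and Iars2, which charge threonine and isoleucine, each had all 3 tyramine libraries under the controls. Tars2 had 36.7, 36 and 36.9 CPM with tyramine and 54.5, 41.3 and 47.7 CPM in controls, and Iars2 had 68.6, 72.4 and 45.6 CPM with tyramine and 80.1, 79.5 and 76.2 CPM in controls. The edgeR adjusted p-values were 0.15 and 0.22. Iars2 shares 22.9% of its exon bases with Rab3gap2 on the opposite strand, whose own log2 fold change was 0.06.

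Yars2 (tyrosine), Wars2 (tryptophan), Mars2 (methionine) and Sars2 (serine) had log2 fold changes of -0.65, -0.82, -0.82 and -0.49 with overlapping groups and edgeR adjusted p-values of 0.20 to 0.57. Counts of Wars2 were low, with 0.777, 1.64 and 3.93 CPM with tyramine and 4.38, 2.91 and 3.93 CPM in controls. Hars2 (histidine) and Nars2 (asparagine) had -0.13 and -0.05. Hars2 and Hars start from opposite strands of chromosome 18 and share 195 exon bases, so their counts cannot be fully separated without the strand setting.

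Positive but uncalled values were those of Fars2 (phenylalanine, 0.55), Ears2 (glutamate, 0.40), Lars2 (leucine, 0.13), Pars2 (proline, 0.11) and Aars2 (alanine, 0.07). Fars2 had 13.6, 8.52 and 41.5 CPM with tyramine and 18.6, 13.2 and 11.6 CPM in controls, so its positive value came from tyramine replicate 3, and without that library it was -0.39. Ears2 is also the enzyme that misloads mitochondrial glutamine tRNA with glutamate, for later correction by an amidotransferase. It had 9.81, 9.41 and 11.5 CPM with tyramine and 5.5, 8.75 and 9.05 CPM in controls, without overlap.

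The counts behind the mitochondrial genes were lower, and the errors larger. The median over genes of the mean level was 10.8 CPM for the mitochondrial set and 169 CPM for the cytosolic set, beside 19.2 CPM over all tested genes. The median SE of the log2 fold change was 0.461 for the mitochondrial set and 0.130 for the cytosolic set, beside 0.324 over all tested genes. Per kilobase of annotated exon, the median level was 1.91 with tyramine and 2.27 in controls for the mitochondrial genes, and 38.6 with tyramine and 33.6 in controls for the cytosolic genes, in CPM per kilobase. The highest per kilobase was Nars in both groups, with 322 ± 14.2 with tyramine and 246 ± 29.4 in controls (SD, n = 3 each), and the lowest was Mars2. The 95% interval lay within 2-fold in either direction for 16 of 20 cytosolic genes and 4 of 16 mitochondrial ones. The intervals of the other mitochondrial genes, Rars2 included, reached past a 2-fold change in at least 1 direction and so did not exclude a change of that size.

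Compared by summed level, the sets moved apart. The 20 cytosolic genes together gave 5907, 5801 and 6196 CPM in tyramine replicates 1 to 3 and 4940, 5117 and 5402 CPM in control replicates 1 to 3. The 16 mitochondrial genes together gave 289, 288 and 279.8 CPM in tyramine replicates 1 to 3 and 373, 344 and 327 CPM in control replicates 1 to 3. Neither sum overlapped between groups. Of the cytosolic difference of 815 CPM, Nars gave 331 CPM, and the sums without Nars were 4467 to 4760 CPM with tyramine and 4001 to 4208 CPM in controls. Without Rars2 the mitochondrial sums were 251 to 262 CPM with tyramine and 279 to 319 CPM in controls. Both sets of sums still did not overlap between groups without that gene. Without Nars, Eprs and Aars the cytosolic sums did overlap, at 3201 to 3272 CPM with tyramine and 3004 to 3216 CPM in controls. Without Rars2, Iars2 and Tars2 the mitochondrial sums also overlapped, at 153 to 169 CPM with tyramine and 155 to 184 CPM in controls.

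Enzymes for the same amino acid were then compared within each library, as the log2 ratio of the cytosolic to the mitochondrial gene (CPM plus 0.5). Of 17 pairings, the ratio was above every control in all 3 tyramine libraries for 4, Cars/Cars2, Lars/Lars2, Rars/Rars2 and Tars/Tars2, and below every control for 0. As single genes, 20.9% of all tested ones lay above all controls and 23.6% below. A matching share over ratios was not computed. Of the 4 pairings, Rars/Rars2 was the tightest. Measured from the control mean, its log2 ratio was 0.75, 1.06 and 0.89 in tyramine replicates 1 to 3 and -0.16, 0.08 and 0.08 in control replicates 1 to 3. Cars/Cars2 was 0.81, 1.40 and 2.38 with tyramine and 0.05, 0.02 and -0.07 in controls. The mean change was 0.41 for Lars/Lars2 and 0.58 for Tars/Tars2. In each of the 4 the exact two-sided permutation test gave p = 0.1, the smallest that 3 against 3 libraries allow, and 0.425 after Benjamini-Hochberg adjustment over the 17 pairings. Vars/Vars2 had a mean change of -0.13, and its tyramine libraries spread on both sides of the controls. Pairings that share Eprs or Fars2 are not independent of each other.

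**Figure D3:**
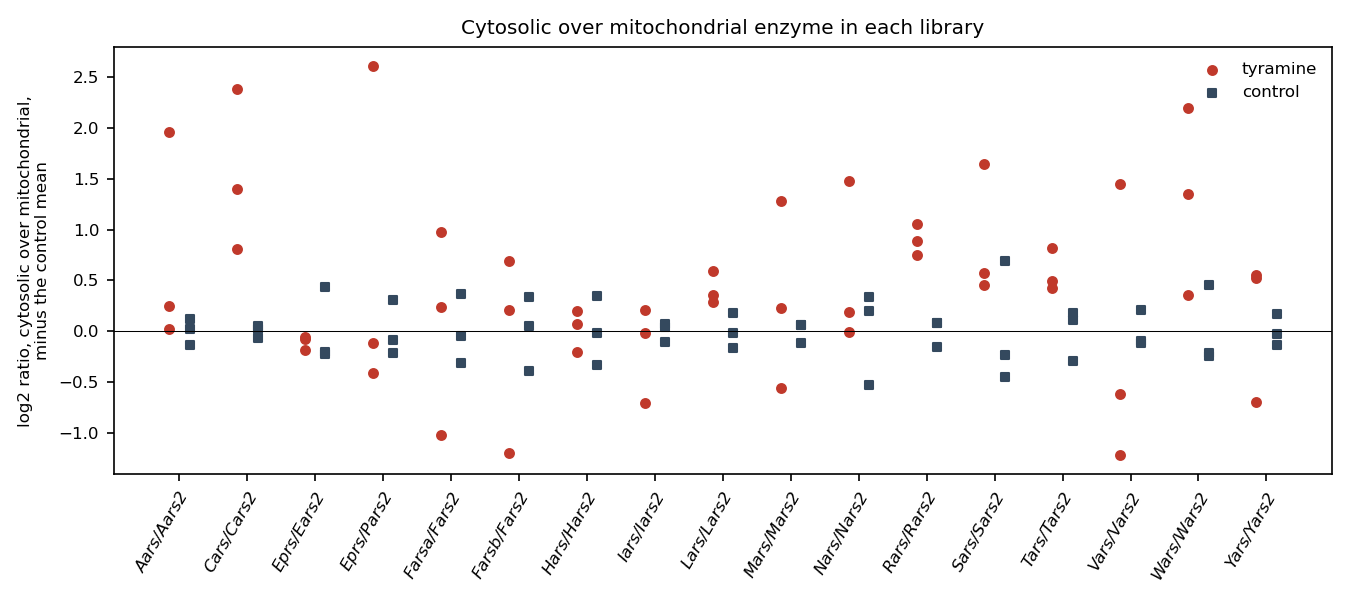
Log2 ratio of the cytosolic to the mitochondrial synthetase gene for the same amino acid in each library, minus the mean of the 3 controls, with tyramine as circles left of control as squares. Rars/Rars2, Cars/Cars2, Lars/Lars2 and Tars/Tars2 have all tyramine libraries above the controls, and in most other pairings the tyramine libraries scatter across them.

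Synthetases fall into 2 structural classes with unrelated catalytic folds, and Eprs, which joins one of each, was left out of this split. Of 18 class I genes 2 rose (Lars and Wars) and 4 fell (Vars, Mars, Iars and Rars2), with a median log2 fold change of -0.44. Of 17 class II genes 3 rose (Aars, Sars and Nars) and 1 fell (Gars), with a median of 0.11. With each library left out, class I gave 1 to 2 rising and 2 to 4 falling genes and class II gave 1 to 3 rising and 0 to 1 falling. These counts stand beside 12.5% of all tested genes rising and 13.3% falling, or 25.8% in all, and the difference between the classes was not tested.

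Some cytosolic synthetases are held in a large multi-synthetase complex. Of its 8 enzyme genes, 2 rose (Eprs and Lars), 2 fell (Mars and Iars) and 4 did not pass, and with each library left out 1 to 2 rose and 0 to 1 fell. Among all tested genes 12.5% rose and 13.3% fell. The scaffold genes Aimp1, Aimp2 and Eef1e1 had log2 fold changes of -0.15, -0.39 and 0.55. For the scaffold 0 passed with edgeR, DESeq2 or limma-voom, and Eef1e1 alone had an unadjusted p under 0.05.

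Among 12 cytosolic genes commonly listed as ATF4 targets, 6 rose, 3 fell and 3 did not pass, and with each library left out 2 to 6 rose and 0 to 2 fell. Of the 8 others 0 rose and Vars fell, with 1 rising at an unadjusted p under 0.05 and 0 by DESeq2 or limma-voom. The split into 12 and 8 was drawn with earlier results of these data known. The difference between them is therefore only a description, and it was not tested. The integrated stress response list held 22 tested genes, of which 8 rose, 4 fell and 10 did not pass. Their median log2 fold change was 0.46. These counts and those of the ATF4 targets stand beside 12.5% of all tested genes rising and 13.3% falling. Slc3a2, the heavy chain of amino acid exchangers, had 634, 630.04 and 764 CPM in tyramine replicates 1 to 3 and 182, 145 and 156 CPM in control replicates 1 to 3 (log2 fold change 2.07, SE 0.122). Ppp1r15a, whose product helps restart translation, had a log2 fold change of 3.62 (SE 0.355), Ddit3 of 1.56 (SE 0.258) and Asns, asparagine synthetase, of 0.76 (SE 0.145). Atf4 itself had 173, 184 and 214 CPM with tyramine and 148, 132 and 127 CPM in controls (log2 fold change 0.49, SE 0.123), a call lost without control replicate 2 (0.46) or 3 (0.44). Falling members were Aldh18a1, which starts proline synthesis (-2.46, SE 0.276), Phgdh, which starts serine synthesis (-1.76, SE 0.356), and the mitochondrial folate enzymes Mthfd2 (-0.99) and Shmt2 (-0.85). Mthfd2 and Shmt2 lost their calls without control replicate 1 (-0.997 and -0.84), 2 (-1.04 and -0.88) or 3 (-0.94 and -0.86). The list gave 5 to 8 rising and 2 to 5 falling genes with each library left out.

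Of 25 tested genes that make, process or export tRNA, or repress its making (Maf1), 6 rose, 1 fell and 18 did not pass. Over all tested genes 12.5% rose and 13.3% fell. The median log2 fold change was 0.24, and with each library left out 2 to 6 rose and 1 to 2 fell. Polr3d, a subunit of RNA polymerase III, had 134, 113 and 118 CPM in tyramine replicates 1 to 3 and 57, 70.8 and 85.2 CPM in control replicates 1 to 3 (log2 fold change 0.78, SE 0.164). Maf1, the repressor of that polymerase, had 28.4, 24 and 33.6 CPM with tyramine and 6.55, 13.2 and 11.7 CPM in controls (1.45, SE 0.321). The polymerase subunits Polr3a and Polr3b, the initiation factor Bdp1 and the La protein gene Ssb also rose (0.71, 0.61, 0.81 and 0.42). These 4 missed the threshold without control replicate 1, at 0.63, 0.54, 0.67 and 0.33. Other left-out libraries also ended calls. Polr3a missed the threshold without tyramine replicate 2 (0.52) and when control replicate 2 (0.76) or 3 (0.72) was left out. Polr3b missed it without control replicate 3 (0.55) or tyramine replicate 1 (0.48), Bdp1 without control replicate 3 (0.84), and Ssb without control replicate 2 (0.40) or tyramine replicate 2 (0.36). Tsen34, a catalytic subunit of the tRNA splicing endonuclease, fell to 9.89, 15.2 and 14.8 CPM with tyramine, against 48.6, 37.6 and 40.5 CPM in controls (-1.67, SE 0.250).

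Of 4 genes that guard charging, 0 rose and 2 fell, beside 13.3% of all tested genes falling, with 0 rising by DESeq2, limma-voom or an unadjusted p under 0.05. Aarsd1, a free-standing editor of mischarged alanine tRNA, had 33.4, 29.2 and 17.6 CPM in tyramine replicates 1 to 3 and 76.7, 80.5 and 77.4 CPM in control replicates 1 to 3 (log2 fold change -1.55, SE 0.233). Dtd1, which strips D-amino acids from tRNA, had 21.5, 20.5 and 14.3 CPM with tyramine and 43, 39.2 and 47.2 CPM in controls (-1.20, SE 0.228). Both calls held in all 13 alternatives. Of 9 mitochondrial translation factors 7 did not pass and 2 fell, Gfm1 (-0.62, SE 0.110) and Gfm2 (-0.67, SE 0.204). In this list 2 of the 9 had a positive log2 fold change, and 0 rose by edgeR, DESeq2, limma-voom or at an unadjusted p under 0.05. Gfm1 was called in all 13 alternatives, while Gfm2 missed the threshold without tyramine replicate 1 (-0.50), tyramine replicate 2 (-0.65) or control replicate 1, 2 or 3 (-0.64, -0.66 and -0.72). Of the 4 genes for mitochondrial glutamine and formylmethionine tRNA, Gatb, an amidotransferase subunit, fell (-0.91, SE 0.293), a call that was lost without any 1 library but tyramine replicate 3 (-0.84 to -1.04). The 5 cytosolic elongation factors gave 0 calls with edgeR, 1 falling with DESeq2 and with limma-voom, and 2 falling at an unadjusted p under 0.05. Their median log2 fold change was 0.02, and Eef1d, a subunit of the exchange factor for eEF1A, had the smallest p (log2 fold change -0.26, edgeR adjusted p = 0.066).

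**Figure D4:**
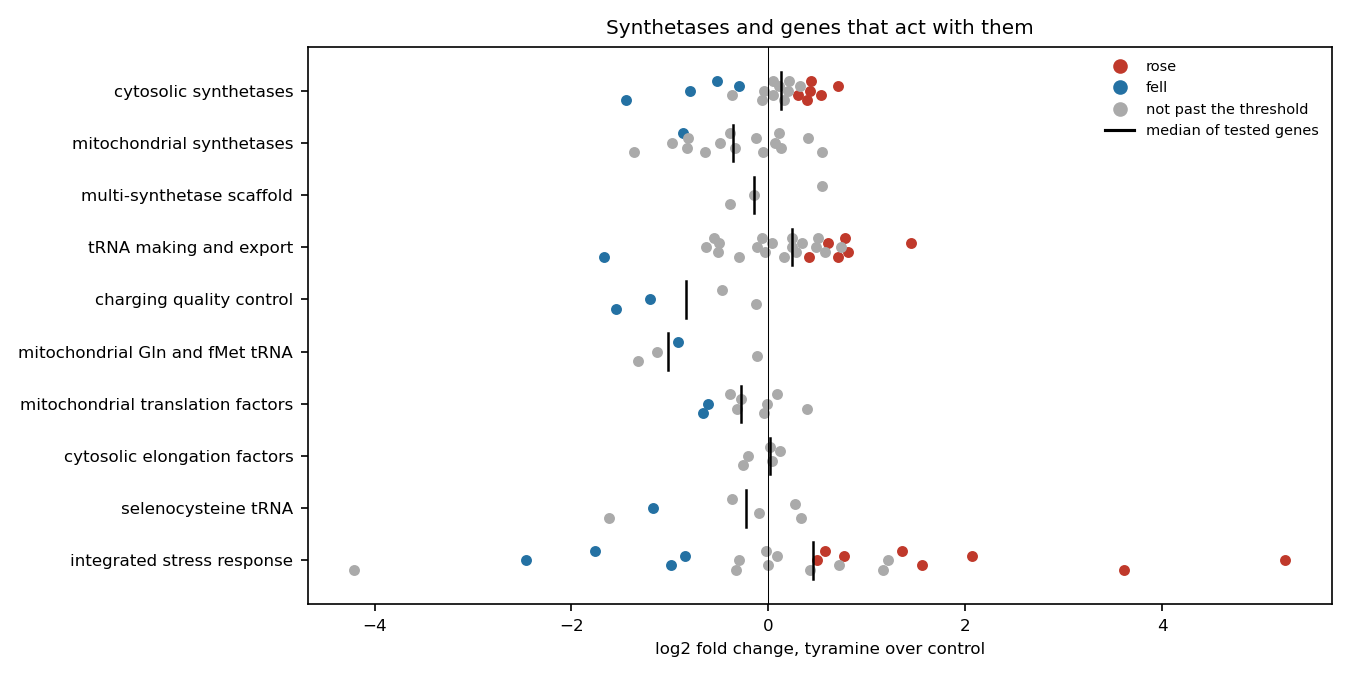
Log2 fold change (tyramine over control) of each tested gene in the synthetase sets and in lists of genes that act with them, coloured by whether the gene rose, fell or was not past the threshold, with a black line at each list's median. The medians run from -1.02 for mitochondrial glutamine and formylmethionine tRNA genes to 0.46 for the integrated stress response, and the cytosolic synthetases hold members on both sides of 0.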

How the data were processed

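A stranded mRNA kit with unique molecular identifiers was used and paired reads came from a DNBSEQ-T7 sequencer, per the labels' protocols. Per the submitters' processing notes, STAR 2.5.3a and build mm10 were used. How the reads were counted, with which annotation and strand setting, and whether identifiers were used, no source used here says. Values deposited are raw counts per gene symbol, 1 column per library.

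Genes were filtered with filterByExpr (minimum count 10, total 15), scaled by TMM and tested with edgeR 4.0.16 (R 4.3.3), robust quasi-likelihood, group as the only term. CPM are the usual scaled counts, over the tested genes' total times the TMM factor. The SE is the log2 fold change over the square root of F, and 95% intervals use the fit's degrees of freedom. Scripts were tested on simulated data. Positions and exon lengths are GENCODE M21, matched by symbol. Counts of 1 to 8 were even in 72.6% to 78.7% of cases, so counts may not be independent molecules. They were used as deposited, with no correction for this.

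Members and lists were chosen with earlier results of these data known. Named were all members and, per list, up to 6 called genes by p, or the smallest p where none was called. Mki67, which is in none of the lists, and Cd79a were named outside this rule. Atf4, Cdh1, Mthfd2, Shmt2, Polr3a and the scaffold genes Aimp1 and Aimp2 were named after their values were seen, as were genes that overlap members. Alternatives were other scaling, DESeq2 1.42.0, limma-voom 3.58.1, other filters, a replicate block and each library left out.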

Additional observations from a re-analysis of the deposited data

How the results depend on the processing

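Aars, Lars, Vars and Rars2 were called in all 13 alternatives, and the other 7 called members lost the call in at least 1. Of 468 member values under alternatives, 33 lost a call, 2 gained one and 17 changed sign with neither value past the threshold, and no called member changed sign. Scaled to library totals alone, Eprs (log2 fold change 0.22) and Wars (0.34) were not called, the cytosolic median was 0.048 and the median of all tested genes -0.08. Polr3a (0.62) and Polr3b (0.52) were not called with that scaling either. With no filter Gars (edgeR adjusted p = 0.052), Gatb (log2 fold change -0.92) and Sepsecs (-1.18) were not called. Without each library, cytosolic genes rising numbered 2 to 6, cytosolic falling 1 to 3, mitochondrial falling 1 to 2, all genes rising 934 to 1510 against 1518, and all genes falling 1035 to 1797 against 1609. Pairings above all controls numbered 5 to 6 against 4, and leaving out a library can only keep or raise that count. The cause of these changes was not tested beyond the loss of a library.

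Same-numbered tyramine and control libraries did not deviate together (correlations -0.0239, -0.0148 and 0.00619), so the numbers were not taken as pairs. With a replicate block, cytosolic genes falling numbered 2 (Mars and Vars), cytosolic rising 5, all genes rising 1204 and all genes falling 1390. Calls of Wars (log2 fold change 0.43), Gars (-0.30), Iars (-0.54), Polr3a (0.69), Polr3b (0.60), Gfm2 (-0.70), Gatb (-0.91) and Sepsecs (-1.18) were lost with it.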

Other observations

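Genes of the selenocysteine tRNA route, which starts from serine loaded by Sars, gave 0 rising and 1 falling member of 6 tested, with 0 rising by DESeq2, limma-voom or at an unadjusted p under 0.05. DESeq2 called 2 falling, limma-voom 3, and 3 had a falling value at an unadjusted p under 0.05. Among all tested genes 12.5% rose and 13.3% fell with edgeR. Sepsecs, which finishes selenocysteine on its tRNA, had 10.3, 5.54 and 7.76 CPM in tyramine replicates 1 to 3 and 12.9, 16.2 and 24.2 CPM in control replicates 1 to 3 (log2 fold change -1.18, SE 0.381, edgeR adjusted p = 0.047). Without any 1 library but tyramine replicate 1 that call was lost, at log2 fold changes of -0.89 to -1.37. Pstk, the kinase of the step before, had 3.42, 1.64 and 5.92 CPM with tyramine and 12.3, 8.50 and 13 CPM in controls, with no overlap, and its edgeR adjusted p was 0.051. Pstk was named after its values were seen.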
